A study of Homo sapiens with 13 samples.

Results

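Among the genes with the largest rise in HEK293T cells treated with UNC0638, 5 stand outside the lipoxygenase and liver genes that lead the response: GRP, LYG2, IRAG1, RYR2 and CFAP92. They were chosen because their ratios of UNC0638-treated to DMSO-treated RNA were large and consistent, so those ratios are described here without a test. Every probe that the array files assign to these symbols was taken, with IRAG1 found under its older symbol MRVI1 and CFAP92 under KIAA1257. This gave 7 probes of 42405 on the array, and each gene is represented by its brightest probe among the 28564 features tested (a feature is a gene, or a probe with no gene symbol).

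HEK293T is a line from human embryonic kidney with the large T antigen of SV40. On each of 13 Agilent arrays, RNA from treated cells and RNA from control cells were hybridised together in different dyes, Cy3 and Cy5. Cells exposed to 1 µM UNC0638 for 48 h were set against cells given DMSO, its solvent, in 5 biological replicates, and replicates 1 and 2 were hybridised in both dye orientations. Cells transfected for 72 h with an siRNA against WIZ were set against cells with a control siRNA, 2 biological replicates in both orientations. Cells transfected for 72 h with an siRNA against G9a were likewise set against control siRNA, 2 biological replicates whose treated RNA was always in Cy5. All groups were of the same line, the siRNAs were delivered with a lipid transfection reagent, and each siRNA is named by its target only. The labels call the replicates biological without saying that they were separate cultures, so p-values measure the spread between these samples. That spread was pooled over all 9 biological replicates of the 3 treatments, 5 of them with UNC0638. A p-value for a siRNA therefore also reflects the scatter of the UNC0638 replicates.

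UNC0638 is a small-molecule inhibitor of G9a and GLP, a pair of enzymes that add methyl groups to lysine 9 of histone H3, a mark found on silenced genes. WIZ is a zinc finger protein that binds this pair and is known for holding it on chromatin. The 5 genes belong to unrelated systems. GRP encodes gastrin-releasing peptide, a bombesin-like neuropeptide made by neurons and neuroendocrine cells that acts through the receptor GRPR. LYG2 encodes a secreted protein of the goose-type lysozyme family, enzymes that cut bacterial cell walls. IRAG1 encodes a membrane-bound substrate of cGMP-dependent protein kinase that holds this kinase at the inositol trisphosphate receptor in smooth muscle. RYR2 encodes the ryanodine receptor of heart muscle, the channel that releases calcium from the sarcoplasmic reticulum. CFAP92 carries the family name of proteins associated with cilia and flagella.

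The sequences that read these genes are shown because each value below is the brightness of 1 such 60-base probe, or the mean of its repeated spots. The LYG2 and CFAP92 probes each cross an exon junction, and the capitals mark the part that lies in the downstream exon. For GRP and RYR2, whose probes lie within 1 exon, the first 30 bases are given. Sequences and coordinates are those of the array files (build 37.1).
LYG2 probe, chr2:99860462-99860483 then chr2:99858908-99858945, minus strand: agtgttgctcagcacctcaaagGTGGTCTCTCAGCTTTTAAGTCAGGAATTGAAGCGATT
CFAP92 probe, chr3:128706459-128706497 then chr3:128697008-128697028, minus strand: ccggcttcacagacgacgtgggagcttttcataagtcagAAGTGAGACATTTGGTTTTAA
GRP probe, chr18:56897918-56897977, plus strand: ttttttatatctaggctacctgttggttag
RYR2 probe, chr1:237996423-237996482, plus strand: gtgggttgagctatgcagaagatacgtgca
The GRP probe was printed in 10 spots per array, the RYR2 and IRAG1 probes in 2 spots and the LYG2 and CFAP92 probes in 1 spot, so GRP had the most spots behind its values. LYG2 and RYR2 each had a further, dimmer probe in 1 spot.

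Promoters were read from a RefSeq table (GRCh38.p14), which was matched for the genes other than IRAG1, since all 5 genes were higher with an inhibitor of a chromatin enzyme. The windows run from 250 bases before to 50 bases after the annotated start, and capitals mark CpG dinucleotides.
GRP, chr18:59219908-59220207, plus strand: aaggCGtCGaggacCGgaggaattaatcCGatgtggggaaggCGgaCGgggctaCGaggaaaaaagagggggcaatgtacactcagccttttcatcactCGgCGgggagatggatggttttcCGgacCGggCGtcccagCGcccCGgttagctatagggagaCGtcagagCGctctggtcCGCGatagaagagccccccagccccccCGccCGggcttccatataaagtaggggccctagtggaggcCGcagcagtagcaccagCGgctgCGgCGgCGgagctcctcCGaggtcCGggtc
RYR2, chr1:237041934-237042233, plus strand: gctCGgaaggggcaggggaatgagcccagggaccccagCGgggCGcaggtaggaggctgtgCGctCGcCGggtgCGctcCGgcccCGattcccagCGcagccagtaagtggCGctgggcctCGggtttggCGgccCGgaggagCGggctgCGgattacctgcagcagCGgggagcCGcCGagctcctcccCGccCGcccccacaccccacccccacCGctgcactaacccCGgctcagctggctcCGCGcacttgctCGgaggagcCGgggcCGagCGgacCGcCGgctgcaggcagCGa
LYG2, chr2:99255617-99255916, minus strand: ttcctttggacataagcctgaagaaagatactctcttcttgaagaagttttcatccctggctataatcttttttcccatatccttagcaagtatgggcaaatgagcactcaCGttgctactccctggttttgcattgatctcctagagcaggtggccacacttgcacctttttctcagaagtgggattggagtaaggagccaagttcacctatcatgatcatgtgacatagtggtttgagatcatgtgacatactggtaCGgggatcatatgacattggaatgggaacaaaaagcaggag
The windows differ in CpG content. The GRP window holds 27 CpGs, more than 71.8% of the 35116 promoters in the table, and the RYR2 window holds 32, more than 81.1%. The LYG2 window holds 2, more than 11.0% of promoters, against a median of 14. CFAP92 has 4 annotated starts whose windows hold 2, 21, 23 and 23 CpGs. Of 5 motifs searched on both strands, TATAAA (the TATA box letters) was found once, 29 bases before the GRP start, and 11.5% of all promoters hold it. GGGCGG, the core of a GC box, was found on the minus strand of the GRP window at 1 position, of the RYR2 window at 2 and of 1 CFAP92 window at 2, and 45.0% of promoters hold it. The E-box CACGTG, held by 7.26% of promoters, the E2F-like motif GCGGGAA, held by 6.55%, and the cAMP response element TGACGTCA, held by 1.85%, were not found in these windows. A match describes the letters only.

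The targeted genes followed their labels. EHMT2, which encodes G9a, was at 31.6% of control after G9a siRNA (log2 ratios -1.67 and -1.65, adjusted p = 0.00233), and WIZ was at 23.1% of control after WIZ siRNA (adjusted p = 0.00140, with all 4 arrays between -2.33 and -1.93). All 7 listed HEK293 line markers were well above background on every array, and between 47.6% and 90.8% of probes in treated RNA and 57.2% and 92.2% in control RNA were. Well above background means that a spot exceeded its local background by more than 2.6 background SDs. Across all features, dye weighed heavily on single arrays. Ratios turned to treated over control correlated between opposite orientations at 0.04 in UNC0638 replicates 1 and 2 and at -0.48 and -0.36 in the WIZ replicates. Where both orientations were hybridised, they were averaged before any test. UNC0638 replicates 3, 4 and 5 and both G9a siRNA replicates had the treated RNA in Cy5 only, so dye was not averaged out of them. UNC0638 replicate 3 stood apart most, with r of 0.88 and 0.84 against the G9a siRNA replicates but 0.13 to 0.66 against the other UNC0638 replicates. Replicate 4 shared this likeness in part, with r of 0.50 against each G9a siRNA replicate. Its r against UNC0638 replicates 1, 2 and 5 was 0.34, 0.21 and 0.24. UNC0638 replicates 3, 4 and 5 and the G9a siRNA replicates share the Cy5 orientation and the second array set described below. Replicate 5 had r of 0.18 and 0.19 against the G9a siRNA replicates. The part of dye and array set in the likeness was not tested. The UNC0638 means of the 5 genes and the calls made with UNC0638 are given with and without replicate 3.

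GRP had the highest mean ratio of the 5 genes with UNC0638. Its brightness above local background was 323 to 813 in UNC0638-treated RNA over the 7 arrays, against 42 to 137 in DMSO-treated RNA. The log2 ratios of the 5 replicates were 1.93, 1.90, 1.57, 1.79 and 1.90, a mean of 1.82 ± 0.15 (SD, n = 5), or 3.53-fold. All replicates lay well above 0, which the choice of the genes favoured, and GRP had the smallest spread among the 5 genes. On any 1 array the 10 spots spread by an SD of 0.11 to 0.22, and single spots ranged from 1.35 to 2.37. Treated RNA stood well above background on 7 of 7 arrays, and control RNA on 4 of 7. Without replicate 3 the mean was 1.88.

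LYG2 had nearly the same ratio in 3 replicates and a lower one in the other two. Brightness was 328 to 1297 in UNC0638-treated RNA, against 102 to 224 in DMSO-treated RNA, and both RNAs were well above background on 7 of 7 arrays. The log2 ratios were 1.92, 1.96, 0.85, 1.39 and 1.99, a mean of 1.62 ± 0.50 (SD, n = 5), or 3.08-fold. Replicate 3 was the lowest, and without it the mean was 1.82. LYG2 had the widest spread of the 5 genes.

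IRAG1 was dim in control cells. Brightness was 182 to 332 in UNC0638-treated RNA, against 20 to 73 in DMSO-treated RNA, which was well above background on 2 of 7 arrays only. The log2 ratios were 1.54, 1.21, 1.88, 1.69 and 1.56, a mean of 1.58 ± 0.25 (SD, n = 5), or 2.98-fold. Here replicate 3 was the highest rather than the lowest, and the mean without it was 1.50.

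RYR2 had its higher values in replicates 3 and 5. Its brightness was 171 to 451 in UNC0638-treated RNA, against 54 to 145 in DMSO-treated RNA, which was well above background on 6 of 7 arrays. The log2 ratios were 1.47, 0.99, 1.64, 1.32 and 1.91, a mean of 1.47 ± 0.34 (SD, n = 5), or 2.76-fold. Without replicate 3 the mean was 1.42. In replicate 2 the ratio was 0.72 with the treated RNA in Cy3 and 1.26 with it in Cy5, the widest gap between orientations among the 5 genes.

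CFAP92 had the lowest mean of the 5. Its brightness was 276 to 667 in UNC0638-treated RNA, against 67 to 170 in DMSO-treated RNA, which was well above background on 6 of 7 arrays. The log2 ratios were 1.55, 1.47, 0.99, 1.21 and 1.86, a mean of 1.42 ± 0.33 (SD, n = 5), or 2.67-fold. Replicate 3 was the lowest here too, and the mean without it was 1.52. The replicate ranges of all 5 genes overlap, so neighbours in the order of means are not separated by their spread.

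**Figure D1:**
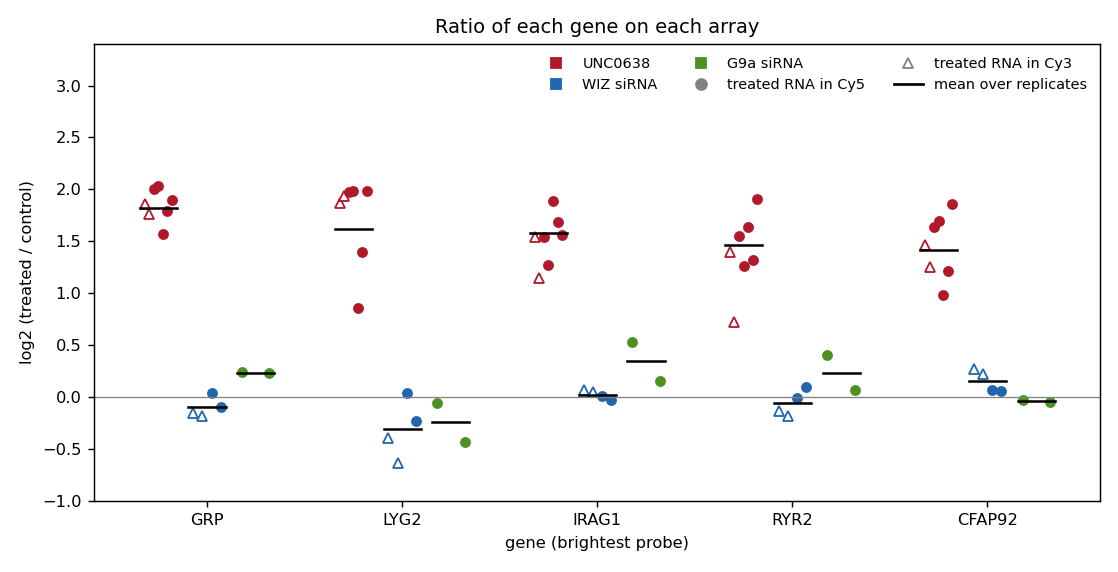
Log2 ratio of treated over control RNA (vertical axis) for the brightest probe of each gene (horizontal axis) on each of the 13 arrays. Circles have the treated RNA in Cy5 and open triangles in Cy3, and black lines are means over biological replicates. The UNC0638 arrays lie between 0.72 and 2.04, and the siRNA arrays lie between -0.63 and 0.53.

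Ranked by mean ratio over all 28564 features, GRP was 4, LYG2 5, IRAG1 6, RYR2 8 and CFAP92 9. Just outside came FABP6, a bile acid-binding protein of the gut, at rank 10 with 1.41 ± 0.34 (SD, n = 5), next to the 1.42 of CFAP92. The genes above were ALOX15B, MAT1A and HULC, with means of 2.44, 2.26 and 1.87. As a background, limma called 3.66% of features changed with UNC0638 at an adjusted p under 0.05, 1.74% rising and 1.91% falling. Nothing is read from it for these 5 genes, which were picked from this comparison.

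The size of the ratio depended on the processing. The ratios above were computed after a background correction that adds an offset of 50 to each channel. In the authors' deposited log2 ratios, without that offset, the replicate means were 2.58 ± 0.27 for GRP, 2.00 ± 0.55 for LYG2, 2.80 ± 0.65 for IRAG1, 2.07 ± 0.49 for RYR2 and 1.89 ± 0.45 for CFAP92 (SD, n = 5 each). Without replicate 3 the means were 2.63 for GRP, 2.22 for LYG2, 2.64 for IRAG1, 2.02 for RYR2 and 2.01 for CFAP92. IRAG1, with the dimmest control RNA, had the highest mean on that scale with all replicates, and without replicate 3 it was level with GRP.

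The arrays fall into separate sets by the pixel SD of the Cy3 background, with UNC0638 replicates 1 and 2 in set 1 and replicates 3 to 5 in set 2. The mean log2 ratios in sets 1 and 2 were 1.92 and 1.75 for GRP, 1.94 and 1.41 for LYG2, and 1.51 and 1.35 for CFAP92. They were 1.23 and 1.62 for RYR2 and 1.38 and 1.71 for IRAG1. With UNC0638, set 1 averages both dye orientations and set 2 has the treated RNA in Cy5 only, so set and orientation cannot be told apart. The IRAG1 control RNA in set 2, with brightness of 20 to 28, was not well above background on any UNC0638 array. Without replicate 3 the set 2 means were 1.85 for GRP, 1.69 for LYG2, 1.54 for CFAP92, 1.62 for RYR2 and 1.63 for IRAG1. All 5 genes were higher with UNC0638 in both sets, which is no separate support, as they were chosen for consistent rises.

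**Figure D2:**
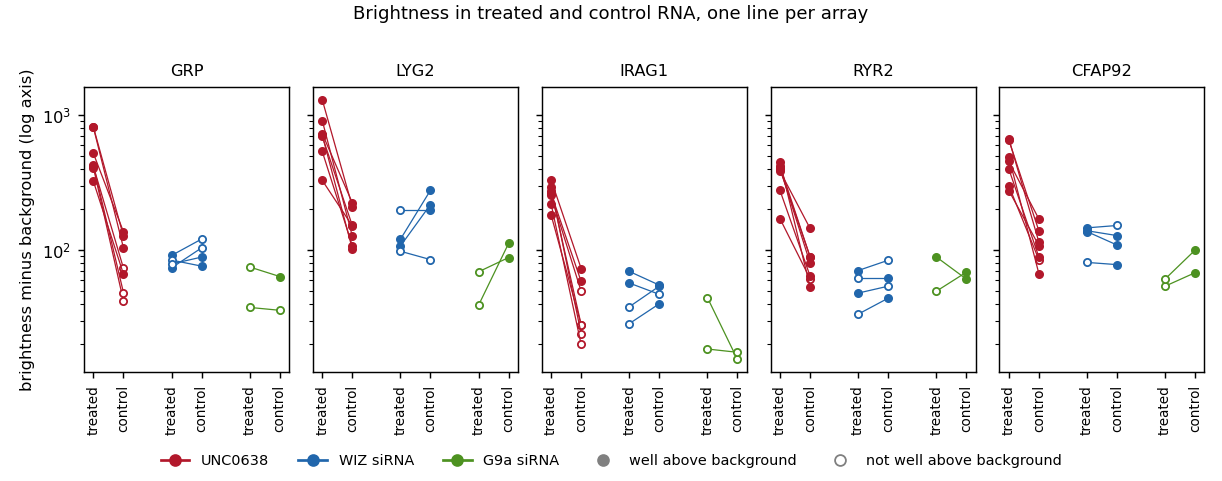
Background-subtracted spot brightness (log vertical axis, arbitrary units) of the 5 genes in treated RNA (left of each pair) and control RNA (right), with 1 line per array. Filled points are well above background and open points are not. UNC0638-treated RNA is filled on 7 of 7 arrays for each gene, while under G9a siRNA most treated points are open.

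The dimmer probes differed in what they read. The dimmer RYR2 probe gave log2 ratios of 0.98, 0.65, 0.57, 0.65 and 0.45 with UNC0638, a mean of 0.66 ± 0.20 (SD, n = 5), or 1.58-fold. All 5 were above 0 but lower than those of the brighter probe, and the mean without replicate 3 was 0.68. The dimmer LYG2 probe gave -0.31, -0.03, 0.23, 0.23 and 0.18, a mean of 0.06 ± 0.23 (SD, n = 5), against 1.62 for the brighter probe. Its replicates fell on both sides of 0, and the mean without replicate 3 was 0.02. Brightness at the dimmer LYG2 probe was 34 to 175 in UNC0638-treated RNA, against 20 to 194 in DMSO-treated RNA, and 5 of 7 arrays had each RNA well above background. The LYG2 probes disagreed, and the mean of 1.62 is that of the probe across the exon junction. No sequence is given in the files for either dimmer probe or for IRAG1.

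**Figure D3:**
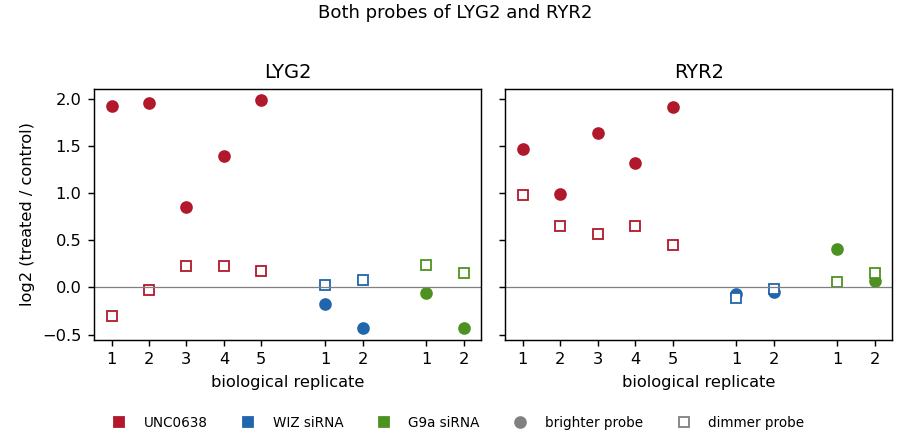
Log2 ratio of treated over control RNA (vertical axis) in each biological replicate (horizontal axis) for both probes of LYG2 and RYR2. Filled circles are the brighter probe and open squares the dimmer one. With UNC0638 the dimmer LYG2 probe lies between -0.31 and 0.23 and the dimmer RYR2 probe between 0.45 and 0.98.

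None of the 5 genes passed the test after WIZ siRNA, where limma called 0.616% of all features. None had an unadjusted p under 0.05 either. The spread behind these p-values and intervals was pooled with the UNC0638 replicates. In a limma fit of the WIZ siRNA replicates alone, which called far more features, LYG2 (adjusted p = 0.0134) and CFAP92 (adjusted p = 0.0333) passed. GRP had log2 ratios of -0.06 and -0.14, a mean of -0.10 (95% confidence interval -0.31 to 0.11, adjusted p = 1.00). LYG2 had -0.18 and -0.44, a mean of -0.31 (-0.86 to 0.25, adjusted p = 0.982). RYR2 averaged -0.06 (-0.46 to 0.34), IRAG1 0.02 (-0.30 to 0.34) and CFAP92 0.16 (-0.22 to 0.53), each with an adjusted p of 1.00. LYG2 was lower in treated RNA when that RNA was in Cy3 (-0.40 and -0.63) and near or below 0 in Cy5 (0.04 and -0.24). For GRP, RYR2 and IRAG1 each RNA exceeded background on the 2 arrays that carried it in Cy3 and on neither of those that carried it in Cy5.

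After G9a siRNA none of the 5 passed the test, where limma called 33.6% of all features. GRP and IRAG1 had an unadjusted p under 0.05. GRP had log2 ratios of 0.24 and 0.23, a mean of 0.24 (95% confidence interval 0.03 to 0.44, adjusted p = 0.0800). IRAG1 had 0.53 and 0.16, a mean of 0.34 (0.02 to 0.66, adjusted p = 0.0947). RYR2 had 0.41 and 0.06 (adjusted p = 0.353), LYG2 had -0.06 and -0.43 (adjusted p = 0.496), and CFAP92 had -0.03 and -0.05 (adjusted p = 0.884). Leaving out UNC0638 replicate 3, which shares the estimate of spread, gave adjusted p = 0.0245 for GRP and 0.0488 for IRAG1, so these calls turn on that library. With the authors' deposited log2 ratios the means were 0.58 for GRP (adjusted p = 0.0273) and 1.36 for IRAG1 (adjusted p = 0.0280).

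These G9a siRNA ratios come from dim spots. The treated RNA was not well above background on either array for GRP, LYG2, IRAG1 and CFAP92. Its brightness was 75 and 38 for GRP in G9a siRNA RNA, against 64 and 36 in control siRNA RNA, which was well above background on 1 of the 2 arrays, and no fold is given. For IRAG1 it was 45 and 19 in G9a siRNA RNA, against 16 and 18 in control siRNA RNA, neither of which was well above background. LYG2 and CFAP92 were well above background in control RNA on both arrays, and no fold is given for them either. With the treated RNA in 1 orientation only, all of these ratios are open to dye bias. RYR2 exceeded background in treated RNA on 1 of 2 arrays.

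No member differed between WIZ siRNA and G9a siRNA by a limma contrast, which called 20.1% of all features. WIZ minus G9a was -0.34 ± 0.13 (SE) for GRP, with adjusted p = 0.102 and an unadjusted p of 0.0300, -0.32 ± 0.20 for IRAG1 and -0.29 ± 0.25 for RYR2. It was -0.06 ± 0.35 for LYG2 and 0.20 ± 0.23 for CFAP92. Without UNC0638 replicate 3, GRP passed with adjusted p = 0.0311. Each siRNA lies in 1 array set, so treatment and set cannot be told apart here, and whether the siRNAs shared control RNA is not stated.

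The pathway of each gene was followed through lists of its known partners, which hold 79 tested genes. With UNC0638 5 of the 79 rose and 0 fell (6.33%, against 3.66% of all features), with a list median of 0.00 against -0.01 over all features. After WIZ siRNA 0 of 79 passed the test, and 9 had an unadjusted p under 0.05. The nearest to passing were CFAP263 (-0.46, adjusted p = 0.05003), which rose with UNC0638, and the junctophilin JPH3 (-0.65, adjusted p = 0.0592). After G9a siRNA 17 rose and 14 fell (39.2% called, against 33.6% of all features, of which 15.2% rose and 18.4% fell). Leaving out UNC0638 replicate 3 left 2 genes called with UNC0638, and 35 with G9a siRNA. After WIZ siRNA that fit called 1 gene of the calcium release list and 1 of the cilia and flagella list, both lower.

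Among 8 tested genes of the bombesin-like peptide pathway limma called none with UNC0638, and 2 had an unadjusted p under 0.05. GRPR, named here as the receptor of GRP and not by the rule for named genes, had a mean log2 ratio of 0.03 with UNC0638 (adjusted p = 0.800) and -0.05 with WIZ siRNA. After G9a siRNA PLCB1, a phospholipase activated by such receptors, rose by 0.93 (adjusted p = 0.00286). NMB, which encodes neuromedin B, the other mammalian bombesin-like peptide, fell by 1.11 (adjusted p = 0.00595) and GNA11, a G protein alpha subunit, fell by 1.11 (adjusted p = 0.00548). Of this list 37.5% was called after G9a siRNA, against 33.6% of all features. Of 8 tested neuroendocrine markers 3 rose with UNC0638: the granins CHGA by 0.67 and CHGB by 0.93, and SCG3 by 1.02, with adjusted p-values from 0.000185 to 0.000853. All 3 also passed without replicate 3. With all replicates 37.5% of these markers were called, against 3.66% of all features. The list's summed brightness was 10731 to 23293 in UNC0638-treated RNA, against 8113 to 18145 in DMSO-treated RNA, and SCG2 was not tested. After WIZ siRNA CHGA fell by 1.22 and SYP, a synaptic vesicle protein, fell by 0.80 (adjusted p = 0.0134). They are 25% of the markers, against 0.616% of all features called. After G9a siRNA CHGA rose by 0.40 (adjusted p = 0.00620) and NCAM1 by 0.70, while INSM1 had -0.35 and ENO2 -0.34, both called. Together they are 50% of the markers, against 33.6% of all features called. The part of these cells' markers in the GRP result was not tested. In bulk RNA a change in the number of cells of a type and a change in RNA per cell cannot be told apart.

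In the lysozyme family 0 of 4 tested genes changed with any treatment, and 2, 0 and 1 had an unadjusted p under 0.05 with UNC0638, WIZ siRNA and G9a siRNA. The gene next to LYG2 is its relative LYG1, the other human goose-type lysozyme gene. Its UNC0638 ratios ran from -0.25 to -0.08, with a mean of -0.19 (adjusted p = 0.0955, and 0.180 without replicate 3), against 1.62 for LYG2. LYZL1, a lysozyme-like protein, had the largest ratio of the family, 0.32 after G9a siRNA (adjusted p = 0.0673). The markers of myeloid and epithelial cells that make lysozyme had 4 tested of 7, without LYZ, MPO and LTF. Of these CSF1R, a growth factor receptor of macrophages, rose by 1.16 with UNC0638 (adjusted p = 8.85e-05), and by 1.19 without replicate 3. Summed brightness was 497 to 997 in UNC0638-treated RNA, against 250 to 916 in DMSO-treated RNA, and its part in the LYG2 result was not tested.

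Of 15 tested genes of the cGMP kinase and inositol trisphosphate receptor system, in which IRAG1 acts, 3 rose with UNC0638. This is 20% of the list, against 3.66% of all features called. MYLK, the myosin light chain kinase, rose by 0.47 (adjusted p = 0.0172), GUCY1A2, a subunit of soluble guanylate cyclase, by 0.30 (adjusted p = 0.0256) and KCNMA1, a calcium-activated potassium channel, by 0.26 (adjusted p = 0.0291). Without replicate 3, MYLK (adjusted p = 0.00222) and the cyclase subunit GUCY1B1 (adjusted p = 0.0468) were the ones called. After G9a siRNA 5 rose and 2 fell, 46.7% of the list, against 33.6% of all features called. Higher were ITPR1 by 0.59, ITPR2 by 0.75, GUCY1B1 by 0.75, the phosphodiesterase PDE5A by 0.44 and the myosin phosphatase subunit PPP1R12A by 0.89. ITPR3 fell by 0.64 and the natriuretic peptide receptor NPR1 fell by 0.23. Of 8 smooth muscle markers SMTN rose by 0.54 and ACTA2 fell by 0.34 with UNC0638 (25% called, against 3.66% of all features). Both also passed without replicate 3 (0.56 and -0.27). These markers are given as a list. Their summed brightness was 3329 to 12682 in UNC0638-treated RNA, against 2705 to 12741 in DMSO-treated RNA, and their part in the IRAG1 result was not tested.

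Of 20 tested partners of RYR2 in calcium release 0 were called with UNC0638 by limma, and 7 had an unadjusted p under 0.05. After G9a siRNA 3 rose and 7 fell, 50% of the list, against 33.6% of all features called. Among those that rose, ASPH, whose products include junctin, rose by 0.68 and the junctophilin JPH1 by 0.50. Which ASPH product the probe reads was not tested. Lower were PRKACA, a catalytic subunit of protein kinase A, by a log2 ratio of -0.76, CAMK2D with -0.69, the calcium pump ATP2A3 with -0.57, the FK506-binding protein FKBP1B with -0.56, JPH3 with -0.43, the L-type calcium channel CACNA1C with -0.38 and CALM3 with -0.33, whose probe matches several genes. Of 7 tested cardiac muscle markers 0 were called with UNC0638 and 1 had an unadjusted p under 0.05, NPPA was not tested, and 2 were well above background in treated RNA on all UNC0638 arrays. Their summed brightness was 4811 to 11931 in UNC0638-treated RNA, against 4352 to 10455 in DMSO-treated RNA.

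Of 32 tested genes of the cilia and flagella associated family CFAP91 rose by 0.29 (adjusted p = 0.0294) and CFAP263 by 0.23 (adjusted p = 0.0432) with UNC0638. They are 6.25% of the family, against 3.66% of all features called, and neither was called without replicate 3. After G9a siRNA 8 rose and 3 fell, 34.4% of the family, which is near the 33.6% of all features called. The 8 were CFAP300 by 1.06, CFAP44 by 0.69, CFAP206 by 0.66, CFAP70 by 0.36, CFAP263 by 0.33, CFAP210 by 0.30, CFAP43 by 0.28 and CFAP161 by 0.20. CFAP410 had -0.48, CFAP119 -0.34 and CFAP20 -0.30. Of 5 tested multiciliated cell markers CCNO fell by 0.43 with UNC0638 (by 0.37 without replicate 3, where it also passed) and none rose, with DNAH5, DNAH9 and TEKT1 not tested. Their summed brightness was 3276 to 7514 in UNC0638-treated RNA, against 3453 to 9630 in DMSO-treated RNA.

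The nearest tested gene on each side was measured to see whether the rise extended along the chromosome. None of the 10 flanking genes was called with UNC0638 by limma, and 5 had an unadjusted p under 0.05. SEC11C, a signal peptidase subunit 60.4 kb before GRP, had a mean of 0.31 (adjusted p = 0.0523, and 0.118 without replicate 3), and RAX, on the other side, had 0.06. MRPL30 before LYG2 had 0.02. MTR, methionine synthase, 138 kb before RYR2, had replicate values of -0.01, 0.05, 0.49, 0.61 and 1.44, a mean of 0.52 (adjusted p = 0.150). LINC01139, 646 kb beyond RYR2, had 0.18, at a distance that says little of the stretch beside RYR2. RNF141 and CTR9 beside IRAG1 had 0.23 and 0.15. CFAP92 overlaps ACAD9, which had 0.06, and GP9 on its other side had 0.01. Without replicate 3 none of the 10 was called, and their means lay between -0.19 and 0.52. All 10 means lie below those of the 5 genes, although the highest MTR replicate reached into their range. The 5 genes were chosen for high UNC0638 ratios, so nearly any other gene would lie below them. This order therefore does not show how far a rise extends.

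**Figure D4:**
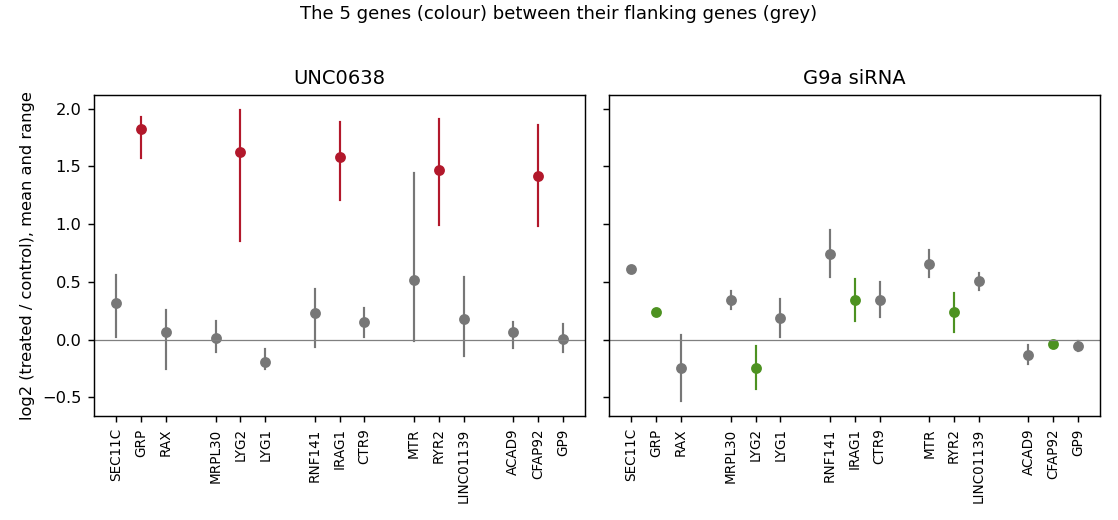
Mean log2 ratio of treated over control RNA (vertical axis) with the lowest and highest replicate, for each of the 5 genes in colour between its nearest tested genes in grey, with UNC0638 on the left and G9a siRNA on the right. With UNC0638 the grey means lie between -0.19 and 0.52. After G9a siRNA several flanking genes lie above the gene between them.

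After WIZ siRNA 0 of the 10 flanking genes were called by limma, and 0 had an unadjusted p under 0.05. After G9a siRNA 5 of 10 rose: RNF141 by 0.74, SEC11C by 0.61, LINC01139 by 0.51, CTR9 by 0.35 and MRPL30 by 0.34, with adjusted p-values from 0.00428 to 0.0267, where 15.2% of all features rose. They flank GRP, LYG2, IRAG1 and RYR2.

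Outside the 5 genes, the named features whose ratios lay closest to each over the 9 biological replicates, by root mean square difference on the log2 scale, came mostly from the same top of the UNC0638 ranking. Of these FGG, a fibrinogen chain, was the closest to CFAP92 (0.22), RYR2 (0.28) and IRAG1 (0.32) and the second closest to GRP (0.39). HULC, a long noncoding RNA, was closest to GRP (0.31) and KRTAP19-1, a keratin-associated protein, to LYG2 (0.32). The other close features were FABP6 for GRP (0.40) and CFAP92 (0.28), FHAD1 for CFAP92 (0.24) and LYG2 (0.45), and CYP2F1 for LYG2 (0.35). SYT13 was close to RYR2 (0.36) and IRAG1 (0.41), GSTO2 to RYR2 (0.37) and ALDH1A1 to IRAG1 (0.41). Among the 5 genes themselves RYR2 and IRAG1 lay closest (0.21), nearer to each other than FGG to either, and LYG2 and IRAG1 farthest apart (0.57). GRP lay at 0.33 to 0.38 from the other members, slightly nearer than FGG.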

How the data were processed

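The data were 13 Agilent 2-colour arrays. Spot and background intensity, as deposited by the authors, is the mean or median pixel brightness of each channel (Cy3 and Cy5) before correction, per the file headers. Per the file headers, the deposited log2 ratio is background-subtracted and normalized by the authors as a function of spot brightness. A deposited log10 ratio table of the series gave control over treated on 8 arrays and treated over control on 5 when set against each array's own log2 ratio, and was turned accordingly. The medians of its columns ran from -0.01 to 0.00818, and how it was centred and filtered is not stated in these sources.

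The members and gene lists were chosen with earlier results of these data known. With limma 3.58.1 in R 4.3.3, intensities were background-corrected (normexp, offset 50) and normalized within arrays by loess with control spots at weight 0. Spots of a probe were averaged, ratios turned to treated over control and dye-swapped pairs averaged, giving 9 biological replicates. Probes well above background on at least 50% of the arrays of 1 RNA group were kept, and the brightest probe represented a gene. One fit gave the 3 treatment means against 0 with Benjamini-Hochberg adjustment over 28564 features and calls at an adjusted p under 0.05. It had 6 residual and 3.37 prior degrees of freedom, and was tested on simulated data. Symbols came from the files and from RefSeq.

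Named were the 5 genes and all their probes, the targeted genes, list genes called in any treatment (else the one with the largest ratio), flanking tested genes and the 3 closest features per gene. One called list gene is not reported here by name. Alternatives were other ratios, corrections, filters, probe rules, dye orientations, array sets, samples in the fit and left-out replicates. The number of arrays limits the precision. With 2 replicates per siRNA, the deviations of same-numbered samples gave a single r of -0.03. This cannot decide whether the samples were paired, and the main fit used no pairing.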

Additional observations from a re-analysis of the deposited data

Results flagged for a closer look

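In 5 of the 64 UNC0638 groups of 5 replicates checked, 1 replicate lay farther from the others than Dixon's 95% limit allows (chance gives about 1 in 20 groups). None of the 7 probes of the 5 genes was among them, the closest having a gap of 0.62 of its range against a limit of 0.71. In 4 of the 5 the distant sample was replicate 3: GUCY1B1 had a log2 ratio of 0.90 there, against 0.17 to 0.32 in the other UNC0638 replicates, and KCNMA1 had 0.47, against 0.17 to 0.25. ITPR2 had 0.44 in that replicate, against -0.13 to -0.06, and FKBP1B had -0.71, against -0.18 to -0.13. For CFAP43 the distant sample was replicate 5, with 0.23 against -0.09 to -0.02.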

How the results depend on the processing

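Each of the 5 genes had a positive UNC0638 mean under every alternative run. The genes were chosen for this rise, so its sign is no added support. Sizes moved with the ratio used and, for LYG2 and RYR2, with the probes averaged. GRP was at 2.58 by the authors' log2 ratio, at 2.90 by the log10 table put on the log2 scale and at 2.07 with no background correction. IRAG1 came to 2.80, 3.54 and 1.91 under the same settings, and RYR2 to 2.07 and 2.61 and CFAP92 to 1.89 and 2.21 under the first and second. LYG2 came to 2.19 with the log10 table, which lacks values for 2 of its replicates and for 1 of CFAP92. With the mean of all kept probes LYG2 came to 0.84 and RYR2 to 1.06, as their dimmer probes read less, and RYR2 came to 1.06 with the treated RNA in Cy3 alone. With 1 replicate left out the UNC0638 means ranged from 1.79 to 1.88 for GRP, 1.53 to 1.82 for LYG2, 1.50 to 1.67 for IRAG1, 1.36 to 1.58 for RYR2 and 1.31 to 1.52 for CFAP92. After WIZ siRNA, adjusted p over the alternatives ran from 0.00223 to 1.00 for LYG2, which passed with its own replicates alone (-0.31, adjusted p = 0.0134) and with the treated RNA in Cy3 alone (-0.52). CFAP92 passed under the same settings (0.16, adjusted p = 0.0333, and 0.25, adjusted p = 0.0430; range 0.0333 to 1.00). RYR2 changed sign with Cy5 alone (0.0429), and IRAG1 with Cy5 alone (-0.0138) and the log10 table (-0.24). After G9a siRNA, GRP passed with the authors' log2 ratio (0.58), the log10 table (0.65) and no background correction (0.31; adjusted p from 0.0160 to 0.374 over the alternatives), and IRAG1 with the authors' ratio (1.36), the log10 table (1.51), median centring (0.39) and its own replicates alone (0.34; adjusted p from 0.0141 to 0.614). With 1 replicate left out GRP ranged from 0.23 to 0.24 and IRAG1 from 0.16 to 0.53. CFAP92 changed sign with the GC trend removed (0.0409), a check that covers 13665 of 28564 features and is void, and with median pixel brightness (0.0224). The cause of these shifts was not tested. Between the siRNAs 1 of the 5 genes differed with the log10 table, with the replicate number as a block (GRP, adjusted p = 0.0228) or without UNC0638 replicate 3, against 0 otherwise; the same block called 11306 features, against 5744 without it. With 1 replicate left out, an alternative chosen after seeing the data, the pathway genes called ranged from 1 to 3 with UNC0638, 0 to 2 with WIZ siRNA and 0 to 35 with G9a siRNA, and the flanking genes from 0 to 1 and 0 to 6 with UNC0638 and G9a siRNA. The 0 came from leaving out G9a siRNA replicate 2, which left 0 features called by limma and 7185 at an unadjusted p under 0.05, against 9597 called in all. The features called moved to 542 with UNC0638 and 30 with WIZ siRNA under the authors' log2 ratio, and to 546 and 40 under the log10 table. They were 2648 and 2363 with UNC0638 and 1827 and 10772 with WIZ siRNA for Cy5 and Cy3 alone, 1701 in array set 2 and 6784 with WIZ siRNA alone. With the GC trend removed 6232 of 13665 features were called with G9a siRNA, a share of 45.6% against 33.6%. With 1 replicate left out they ranged from 602 to 882, 20 to 349 and 0 to 11024 for UNC0638, WIZ siRNA and G9a siRNA. Dim spots limit the G9a siRNA ratios, where treated RNA was not well above background on either array for 4 of the 5 genes.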
